A study of Mus musculus with 8 samples.

Results

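The 10 genes described here are transcripts commonly used as markers of regulatory T cells: Foxp3, Il2ra, Il2rb, Ikzf2, Ikzf4, Tnfrsf18, Tnfrsf4, Nrp1, Itgae and Entpd1. They were chosen by symbol, and all 10 are among the 14042 genes of the deposited tables. Expression was measured by RNA sequencing in 8 mouse libraries, 2 in each of 4 groups. TFH KO and TFH WT come from (bxd)F1 recipients that were given CD8-depleted donor spleen cells (10000000 cells); at day 7 donor CD4 cells with CXCR5 and high PD1 were sorted from the spleen, a gate for T follicular helper (TFH) cells. The donors were C5aR1-/- (KO), lacking a receptor for the complement fragment C5a, or wild type (WT). Naive KO and naive WT are CD4 T cells of the same genotypes sorted as CD62L high and CD44 low, without transfer. The labels give no strain, age or sex of the donors and do not say whether animals were pooled. Levels are the deposited log2 values, differences are log2 differences of group means ± standard error (SE), and a gene was called at a Benjamini-Hochberg adjusted p below 0.05 over all genes in limma, a linear model that shares information on spread between genes.

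Regulatory T cells restrain other immune cells and depend on FOXP3, a transcription factor whose loss causes fatal autoimmunity. They carry much of the high-affinity receptor for interleukin 2 (IL-2), a growth factor made mainly by other T cells, and they express costimulatory receptors, adhesion molecules and an enzyme that breaks down extracellular ATP. Most of these molecules are not limited to regulatory T cells: activated helper T cells also make several of them, and a CXCR5 positive, PD1 high gate can hold follicular regulatory T cells beside helper cells. In bulk libraries, fewer cells of a type and less RNA per cell cannot be told apart.

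The sequences before the annotated starts of Il2ra, Nrp1 and Entpd1 are shown because Il2ra was called lower in TFH-labelled libraries of both genotypes, while Nrp1 and Entpd1, neither called, had differences of opposite sign to each other in both. RefSeq windows of 250 bases before a start were found for 6 of the 10 members (GRCm38.p6), and the 3 shown hold no annotated exon. Entpd1 has 2 such windows: the one shown precedes a second start inside the gene, and the one before its first start, which holds 118 bases of annotated exon, is not printed. The Nrp1 window precedes its RefSeq start but also lies inside the gene as annotated in GENCODE vM21, where Nrp1 begins at 128358604. Capitals mark matches on either strand to a loose NF-kB pattern, GGG and CC with any 5 bases between them, which occurs in 45.8% of 32851 windows of this length. The other patterns searched were TTCNNNGAA for STAT5 (7.02% of windows), TGANTCA for AP-1 (6.75%) and TGTTTAC for forkhead factors (3.17%), and none of these letters occur in the 3 windows.
Il2ra, chr2:11642542-11642791, plus strand: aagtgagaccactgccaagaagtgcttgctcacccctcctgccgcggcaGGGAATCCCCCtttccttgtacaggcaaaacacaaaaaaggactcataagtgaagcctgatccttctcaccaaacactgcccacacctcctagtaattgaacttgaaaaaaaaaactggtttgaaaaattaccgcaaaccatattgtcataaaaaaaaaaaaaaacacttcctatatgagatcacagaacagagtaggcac
Nrp1, chr8:128358823-128359072, plus strand: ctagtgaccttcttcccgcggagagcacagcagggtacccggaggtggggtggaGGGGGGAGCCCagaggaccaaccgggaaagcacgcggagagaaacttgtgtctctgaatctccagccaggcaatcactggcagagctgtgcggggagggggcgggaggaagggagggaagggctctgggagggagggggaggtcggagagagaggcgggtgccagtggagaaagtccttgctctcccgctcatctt
Entpd1, chr19:40659520-40659769, plus strand: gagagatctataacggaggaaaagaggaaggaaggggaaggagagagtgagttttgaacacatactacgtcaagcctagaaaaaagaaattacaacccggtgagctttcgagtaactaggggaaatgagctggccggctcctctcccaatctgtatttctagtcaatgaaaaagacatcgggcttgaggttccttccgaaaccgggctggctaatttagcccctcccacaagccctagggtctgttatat
The Il2ra and Nrp1 windows each hold 2 overlapping matches to the NF-kB pattern, and the Entpd1 window holds none. A match is a description of letters and not of a bound site.

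The libraries carried the T cell transcripts that their labels imply, but the sort markers only in part. Cd4 lay between 15.48 and 15.69 and Cd3e between 13.75 and 13.99 over all 8 libraries. Pdcd1, which encodes PD1, was 11.88 to 12.85 in TFH-labelled and 10.80 to 11.97 in naive-labelled libraries, so the groups overlapped. Cxcr5 was 10.85 to 11.56 in TFH-labelled and 11.56 to 12.45 in naive-labelled libraries, lower in all 4 TFH-labelled libraries and against the CXCR5 gate of the TFH sort. These values go against the labels in part, and every direction between TFH and naive below is between libraries labelled so. Cd44 was 11.97 to 12.11 in TFH-labelled and 12.53 to 13.04 in naive-labelled libraries, against the CD44 low gate of the naive sort. Transcripts of 14 B cell markers differed widely within groups: their median deviation from the mean over all libraries was -1.69 and 2.15 in replicates 1 and 2 of TFH KO and -1.70 and 0.61 in those of TFH WT, against 0.03 to 0.66 in naive KO and -0.56 to 0.26 in naive WT. Naive KO replicate 1 stood apart in the sex-linked RNA Xist, at 14.61 against 4.44 to 5.56 in the other 7 libraries. The Y-linked gene Ddx3y was 5.67 in this library against 12.54 to 13.16 in the other 7. The 2 naive KO libraries thus differed in sex-linked transcripts, and the part of sex in the naive KO values was not tested. Replicates were numbered in submission order, and equal numbers do not pair libraries. The deposited values share 1 distribution, so a difference is relative to the other genes of a library. As alternative scales, libraries were re-centred on 9 T cell identity genes, by the median of their levels (level centring), which shifted every difference between TFH and naive by 0.51 in KO and 0.44 in WT, or by the median of their deviations from each gene's mean (deviation centring), which shifted it by 0.20 in KO and 0.09 in WT. Level centring was planned, and deviation centring was added after its results had been seen. The median level fell on Cd3g in naive KO replicate 1 and both naive WT libraries, and on Cd5 or Thy1 in the others. Thy1 was 14.32 to 14.81 in TFH-labelled and 15.39 to 15.48 in naive-labelled libraries, and Cd5 14.29 to 14.46 against 14.84 to 15.25. The shift by level centring therefore follows which gene is in the middle, as well as the scale of a library. The direction of several members depends on these scales.

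**Figure D1:**
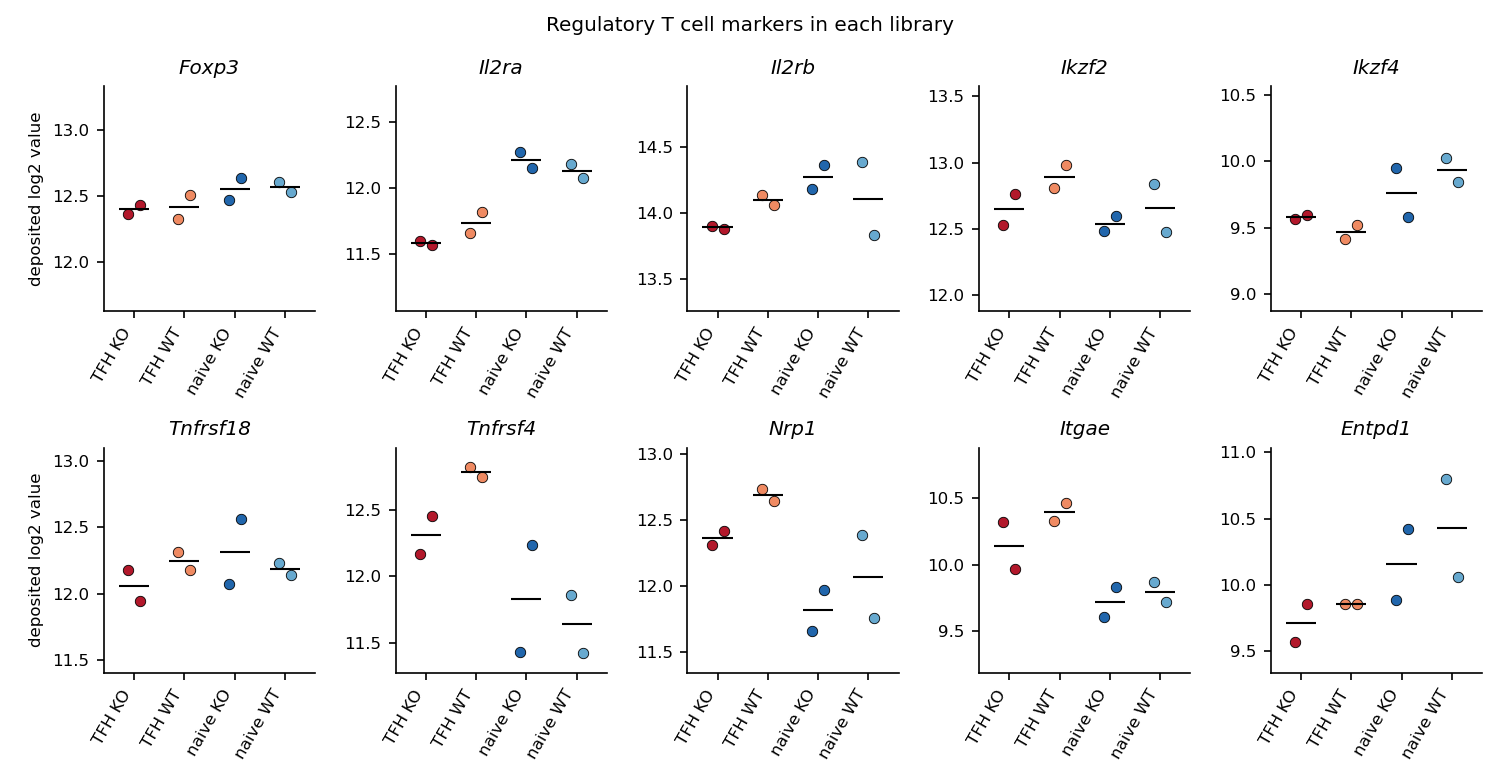
Deposited log2 values of the 10 markers, 1 panel a gene, with points for the 2 libraries of each group and a line at their mean; every vertical axis spans the same number of log2 units. On this scale Il2ra is lower in all 4 TFH-labelled libraries than in all 4 naive-labelled ones and Itgae is higher; with level centring the Il2ra groups overlapped and the WT difference was 0.06.

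Foxp3, the gene that defines the lineage, was present in all groups and was called in none of the 5 comparisons. It was 12.36 and 12.43 in TFH KO, 12.32 and 12.51 in TFH WT, 12.46 and 12.63 in naive KO, and 12.60 and 12.53 in naive WT. The 8 values spanned 0.31. Within each genotype both TFH values lay below both naive values, but TFH WT replicate 2 was above naive KO replicate 1. TFH minus naive was -0.15 ± 0.11 in KO (95% interval -0.39 to 0.08, adjusted p = 0.366) and -0.15 ± 0.11 in WT (95% interval -0.38 to 0.09, adjusted p = 0.344), neither called. With level centring these were 0.35 in KO and 0.30 in WT, also not called, and with deviation centring the KO difference was 0.04. KO minus WT was -0.02 ± 0.11 in TFH-labelled libraries (95% interval -0.25 to 0.22) and -0.01 ± 0.11 in naive-labelled libraries (95% interval -0.25 to 0.22). These intervals leave room for differences of up to about 0.25 in KO against WT. Foxp3 lies on chromosome X at 7573644 to 7595245 (GENCODE vM21, GRCm38), and its annotated body overlaps Ccdc22 and Ppp1r3f on the other strand at its ends. Gm36995, also on the other strand, spans all of Foxp3, and Flicr overlaps its start on the same strand. Neither Gm36995 nor Flicr is among the measured genes. Whether counting used strand is not given in the sources used here, so reads of the overlaps cannot be assigned with certainty. Strand would not separate Flicr from Foxp3. Ccdc22 was not called in any of the 5 comparisons, and Ppp1r3f was called lower in TFH WT than in naive WT (-0.80 ± 0.24, adjusted p = 0.0269).

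Ikzf2 and Ikzf4 encode Helios and Eos, zinc-finger factors of the Ikaros family that work with FOXP3 in regulatory T cells. Ikzf2 was 12.53 and 12.77 in TFH KO, 12.81 and 12.98 in TFH WT, 12.48 and 12.60 in naive KO, and 12.84 and 12.47 in naive WT. The higher naive WT library reached into the TFH WT range, and TFH minus naive was 0.11 ± 0.14 in KO and 0.24 ± 0.14 in WT, neither called. The KO difference was -0.01 without TFH KO replicate 2, and the WT difference 0.42 without naive WT replicate 1 and 0.06 without naive WT replicate 2. With level centring both were called, at 0.62 in KO (adjusted p = 0.0223) and 0.68 in WT (adjusted p = 0.0149). Ikzf4 was 9.56 and 9.59 in TFH KO, 9.42 and 9.52 in TFH WT, 9.95 and 9.58 in naive KO, and 10.02 and 9.84 in naive WT. Both TFH WT libraries lay below both naive WT libraries, while naive KO replicate 2 lay within the TFH KO range. Ikzf4 fell by 0.46 ± 0.15 in TFH WT against naive WT (adjusted p = 0.0445), a call that ended under several settings: without any 1 of the 2 TFH WT, 2 naive WT or 2 TFH KO libraries (adjusted p between 0.0501 and 0.213), with the second library of each TFH group left out (adjusted p = 0.12), without the variance trend (adjusted p = 0.0621) or the robust option (adjusted p = 0.0504), with deviation centring (adjusted p = 0.213) and with level centring (-0.02, adjusted p = 0.943). In KO the difference was -0.19 ± 0.15 (adjusted p = 0.448), and it was 0.01 with deviation and 0.32 with level centring.

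Il2ra encodes CD25, the alpha chain that gives the IL-2 receptor its high affinity. It was 11.60 and 11.57 in TFH KO, 11.66 and 11.82 in TFH WT, 12.27 and 12.15 in naive KO, and 12.18 and 12.07 in naive WT. All 4 TFH-labelled libraries were below all 4 naive-labelled ones. Il2ra fell by 0.63 ± 0.10 in TFH KO against naive KO (0.648-fold, adjusted p = 0.00156), a call kept with each of the 8 libraries left out in turn (adjusted p from 0.00229 to 0.0136). It fell by 0.39 ± 0.10 in TFH WT against naive WT (0.765-fold, adjusted p = 0.0162), a call lost when either replicate 1 was left out, giving -0.33 without that of naive WT (adjusted p = 0.102) and -0.31 without that of TFH WT (adjusted p = 0.141). Neither call held on the other scales: the differences were -0.43 in KO (adjusted p = 0.0979) and -0.30 in WT (adjusted p = 0.213) with deviation centring, and -0.12 in KO (adjusted p = 0.532) and 0.06 in WT (adjusted p = 0.779) with level centring.

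Il2rb encodes CD122, the beta chain that IL-2 and IL-15 receptors share. It was 13.91 and 13.88 in TFH KO, 14.13 and 14.06 in TFH WT, 14.18 and 14.37 in naive KO, and 14.38 and 13.84 in naive WT. Both TFH KO libraries were below both naive KO libraries, and the naive WT libraries lay on either side of TFH WT. TFH minus naive was -0.38 ± 0.16 in KO (adjusted p = 0.12) and -0.01 ± 0.16 in WT (adjusted p = 0.963). The KO difference was called without naive WT replicate 1 (adjusted p = 0.0344) or naive WT replicate 2 (adjusted p = 0.0346), libraries that enter it only through the shared estimate of spread. The WT difference was 0.26 without naive WT replicate 1, 0.02 without TFH WT replicate 2, 0.07 with deviation centring and 0.43 with level centring. With level centring the KO difference was 0.13. CD8 T and NK cell markers were lower in TFH-labelled libraries for 11 of 12 genes in each genotype. Their median difference was -0.82 in KO, with 6 called lower (10.4% of all genes). In WT it was -1.46, with 7 called lower (13.7% of all genes). The part of such cells in the Il2rb values was not tested.

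Tnfrsf4 and Tnfrsf18 encode OX40 and GITR, costimulatory receptors of the TNF receptor superfamily that activated T cells also make. They are neighbours on chromosome 4, Tnfrsf4 at 156013843 to 156016612 and Tnfrsf18 at 156026164 to 156028895, with 9551 bases between them. Tnfrsf4 was 12.17 and 12.46 in TFH KO, 12.82 and 12.75 in TFH WT, 11.43 and 12.23 in naive KO, and 11.86 and 11.42 in naive WT. It had the largest SD of the 10 members over the 8 libraries, 0.54, and naive KO replicate 2 reached into the TFH KO range. Tnfrsf4 rose by 1.15 ± 0.29 in TFH WT against naive WT (2.21-fold, adjusted p = 0.0356), the largest difference of any member in any of the 5 comparisons. That call was lost when naive WT replicate 2 was left out (0.93, adjusted p = 0.128). Leaving out replicate 1 or 2 of TFH WT gave 1.11 (adjusted p = 0.169) and 1.18 (adjusted p = 0.15), and leaving out replicate 1 or 2 of TFH KO, which only changes the shared spread, gave adjusted p-values of 0.0591 and 0.0589. It was also lost with the second library of each TFH group left out (adjusted p = 0.203). In TFH KO against naive KO the difference was 0.48 ± 0.29 (95% interval -0.24 to 1.20, adjusted p = 0.323), and it rested on the naive KO library kept: 0.08 without naive KO replicate 1 (adjusted p = 0.834) and 0.89, called, without naive KO replicate 2 (adjusted p = 0.0155). With level centring it was called (0.99, adjusted p = 0.0093).

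Tnfrsf18 was not called in either genotype. It was 12.18 and 11.94 in TFH KO, 12.32 and 12.18 in TFH WT, 12.07 and 12.56 in naive KO, and 12.23 and 12.14 in naive WT. TFH-labelled and naive-labelled values overlapped in both genotypes. TFH minus naive was -0.26 ± 0.15 in KO and 0.06 ± 0.15 in WT, neither called. The WT value was -0.0049 without TFH WT replicate 1. With level centring they were 0.25 in KO and 0.51 in WT, the WT difference being called (adjusted p = 0.0112). The KO difference was -0.50 and called without naive KO replicate 1 (adjusted p = 0.0323), and -0.01 without naive KO replicate 2 (adjusted p = 0.972). An annotated antisense gene, Gm16008, spans Tnfrsf18, and reads from the other strand cannot be told apart if counting ignored strand.

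Nrp1 encodes neuropilin 1, a co-receptor for semaphorins and vascular endothelial growth factor that marks thymus-derived regulatory T cells. It was 12.31 and 12.41 in TFH KO, 12.73 and 12.64 in TFH WT, 11.66 and 11.97 in naive KO, and 12.39 and 11.76 in naive WT. Both TFH libraries of each genotype were above both naive libraries of that genotype. TFH minus naive was 0.54 ± 0.20 in KO (1.46-fold, adjusted p = 0.0941) and 0.62 ± 0.20 in WT (1.53-fold, adjusted p = 0.0527), neither called. In WT it was called without the robust option (adjusted p = 0.042), with library quality weights (adjusted p = 0.0379) and without naive WT replicate 1 (0.93, adjusted p = 0.00325), but it was 0.30 without naive WT replicate 2 (adjusted p = 0.203). With level centring it was called in both, at 1.05 in KO (adjusted p = 0.00362) and 1.06 in WT (adjusted p = 0.00309). In KO it was also called when the fit held only TFH KO and naive KO (adjusted p = 0.0209) and without naive WT replicate 1 (adjusted p = 0.0134) or replicate 2 (adjusted p = 0.0137), and it was 0.39 without naive KO replicate 1 (adjusted p = 0.347).

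Itgae encodes CD103, the integrin alpha chain that pairs with beta 7 and binds E-cadherin on epithelium. It was 10.32 and 9.96 in TFH KO, 10.33 and 10.47 in TFH WT, 9.60 and 9.84 in naive KO, and 9.87 and 9.72 in naive WT. All 4 TFH-labelled libraries were above all 4 naive-labelled ones. Itgae rose by 0.61 ± 0.15 in TFH WT against naive WT (1.52-fold, adjusted p = 0.0124), a call lost when naive WT replicate 2 (0.53, adjusted p = 0.0852), replicate 2 of TFH WT (0.54, adjusted p = 0.0926) or that of both TFH groups (adjusted p = 0.0716) was left out. In KO the difference was 0.42 ± 0.15 (1.34-fold, adjusted p = 0.0728), and it was 0.25 without TFH KO replicate 1 (adjusted p = 0.372). It was called without TFH KO replicate 2 (0.60, adjusted p = 0.045), with deviation centring (0.62, adjusted p = 0.0278) and with level centring (0.93, adjusted p = 0.00223). The mitotic kinase gene Haspin, listed in the tables under its older symbol Gsg2, lies within Itgae on the other strand. Gsg2, examined after the values of Itgae were seen, was -0.14 ± 0.18 in KO and -0.13 ± 0.18 in WT for TFH minus naive, neither called.

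Entpd1 encodes CD39, which removes phosphates from extracellular ATP and also occurs on B cells and myeloid cells. It was 9.57 and 9.86 in TFH KO, 9.85 and 9.86 in TFH WT, 9.89 and 10.42 in naive KO, and 10.80 and 10.06 in naive WT. All 4 TFH-labelled libraries were below all 4 naive-labelled ones. Naive WT replicate 1 was the highest of the 8. TFH minus naive was -0.44 ± 0.27 in KO (adjusted p = 0.306) and -0.57 ± 0.27 in WT (adjusted p = 0.161), neither called. In WT it was -0.20 without naive WT replicate 1 (adjusted p = 0.604) and -0.95, called, without naive WT replicate 2 (adjusted p = 0.0199). In KO it was -0.71 without naive KO replicate 1 and -0.18 without naive KO replicate 2, neither called. With level centring the differences were 0.07 in KO and -0.13 in WT. The myeloid markers were also lower in TFH-labelled libraries. Their median deviation was -1.07 and -0.09 in TFH KO, -1.20 and -0.64 in TFH WT, 0.41 and 0.52 in naive KO, and 2.16 and 0.20 in naive WT. Within TFH WT the myeloid values differed while those of Entpd1 were 9.85 and 9.86. The median deviation of CD8 T and NK cell markers was lower in TFH-labelled libraries too. The part of such cells in the Entpd1 values was not tested.

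**Figure D2:**
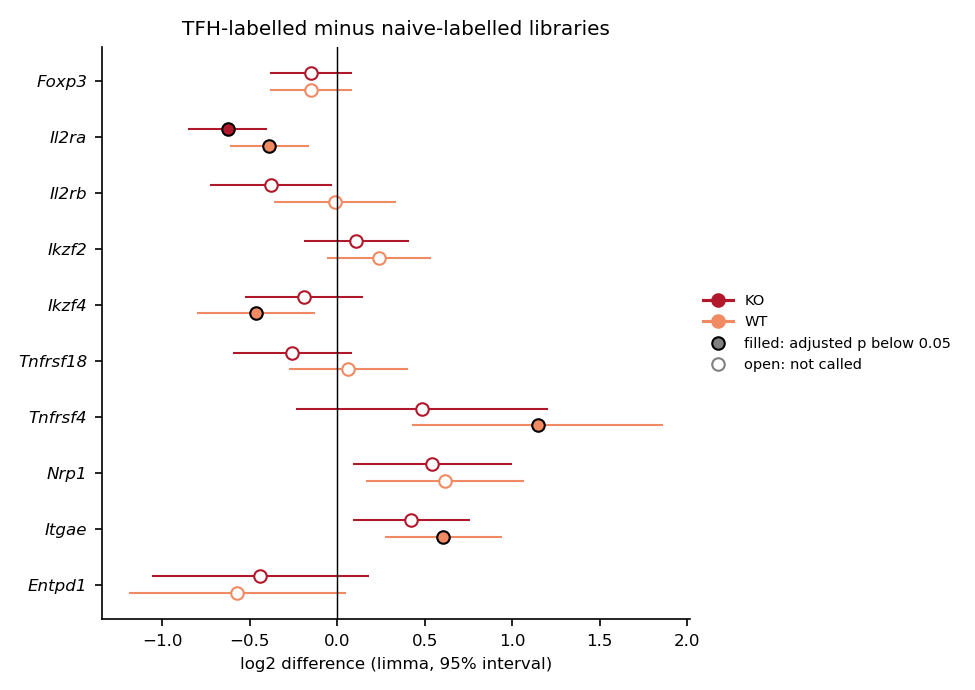
Log2 difference between TFH-labelled and naive-labelled libraries for each marker, in KO and in WT, with 95% intervals from limma; filled points were called at an adjusted p below 0.05. Il2ra is called in both genotypes on the deposited scale, though in neither after centring (0.06 in WT with level centring), and Ikzf4, Tnfrsf4 and Itgae pass the threshold in WT.

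Across the set, the calls between TFH-labelled and naive-labelled libraries fell on single members and, in WT, in both directions on the deposited scale. In TFH KO against naive KO, 1 of 10 members was called, Il2ra, against 19.5% of all genes (9.12% higher and 10.4% lower), and 4 had an unadjusted p below 0.05 (32.6% of all genes). In TFH WT against naive WT, 4 of 10 were called, 2 higher and 2 lower, against 26.3% of all genes (12.6% higher and 13.7% lower), and 5 had an unadjusted p below 0.05 (37.8% of all genes). These splits rest on the scale: with deviation centring 1 was called higher in KO and 2 in WT, with level centring 4 in KO and 5 in WT, and none was called lower with either. All genes shifted too: deviation centring called 14.1% of them in KO (10.7% higher and 3.4% lower) and 18.2% in WT (11% higher and 7.27% lower), and level centring 53.5% in KO (51.5% higher and 1.99% lower) and 49.9% in WT (46.4% higher and 3.56% lower). The median difference of the 10 members was -0.17 in KO and 0.02 in WT, beside -0.01 in KO and 0.01 in WT over all genes. Groups of 2 did not overlap for 6 of 10 members in KO (58.2% of all genes) and for 7 of 10 in WT (65% of all genes). Over both genotypes, 3 of 10 members, Il2ra, Itgae and Entpd1, kept 4 TFH-labelled apart from 4 naive-labelled libraries, against 38.5% of all genes (18.2% above and 20.3% below). With level centring the count was 6 (65.6% of all genes), and without replicate 2 of both TFH groups 5 (50.7%). It was 5 without naive KO replicate 2 (44.3%) and 5 without TFH KO replicate 1 (43.8%). The counts of members were not tested against those of all genes. The sign of the difference was the same in KO and WT for 9 of 10 members, Tnfrsf18 being the exception, and for 79.5% of all genes, comparisons that share no library. In the interaction of genotype and label 0 of 10 members were called (0.0142% of all genes, 0.00712% in each direction), and the largest was Tnfrsf4 at -0.66 ± 0.41 (95% interval -1.68 to 0.35). None of the 10 had an unadjusted p below 0.05 in it (4.37% of all genes).

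The comparison of TFH KO with TFH WT asks what loss of C5aR1 in the donor cells did to these transcripts in the sorted cells. No member was called, as was no gene at all (0% of 14042), and none of the 10 had an unadjusted p below 0.05 (3.6% of all genes). The values were lower in KO for 9 of 10 members, with Ikzf4 the exception at 0.11 ± 0.15; over all genes 49.7% were lower. The median difference was -0.20, beside 0.00 over all genes. For 8 of the 10 members the 2 KO values did not overlap the 2 WT values, 7 of them lower and Ikzf4 higher, while 33% of all genes did not overlap. Foxp3, at -0.02, and Entpd1, at -0.14 ± 0.27, overlapped, and Foxp3 was 0.08 with deviation centring, 0.02 with level centring and 0.04 without replicate 2 of both TFH groups.

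Tnfrsf4 showed the largest of these differences, -0.47 ± 0.29 (0.721-fold, 95% interval -1.19 to 0.25), followed by Nrp1 at -0.33 ± 0.20 (95% interval -0.78 to 0.13). Itgae was at -0.26 ± 0.15, Ikzf2 at -0.25 ± 0.14, Il2rb at -0.20 ± 0.16, Tnfrsf18 at -0.19 ± 0.15 and Il2ra at -0.15 ± 0.10. With single libraries left out the differences ranged from -0.43 to -0.08 for Itgae, -0.36 to -0.13 for Ikzf2 and -0.31 to -0.07 for Tnfrsf18. They ranged from -0.23 to -0.08 for Il2ra, -0.29 to -0.0015 for Entpd1 and 0.06 to 0.16 for Ikzf4. The sizes thus depended on single libraries, while the signs of these genes did not change. The lowest sizes came without TFH KO replicate 2 for Itgae and Tnfrsf18, without TFH KO replicate 1 for Ikzf2 and Entpd1, without TFH WT replicate 2 for Il2ra and without TFH WT replicate 1 for Ikzf4. Each of the 10 intervals includes 0, so differences of these sizes were not separated from the spread between libraries. With 2 libraries a group, the smallest two-sided p of an exact permutation test is 0.333. Markers of other cells moved with this comparison: 13 of 14 B cell, 11 of 12 CD8 T and NK cell, 10 of 11 myeloid and 7 of 7 plasmacytoid dendritic cell markers were higher in TFH KO, none called. The summed B cell markers had log2 levels of 12.77 and 16.81 in TFH KO against 13.00 and 15.29 in TFH WT. Their part in the lower values of the 9 members was not tested.

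**Figure D3:**
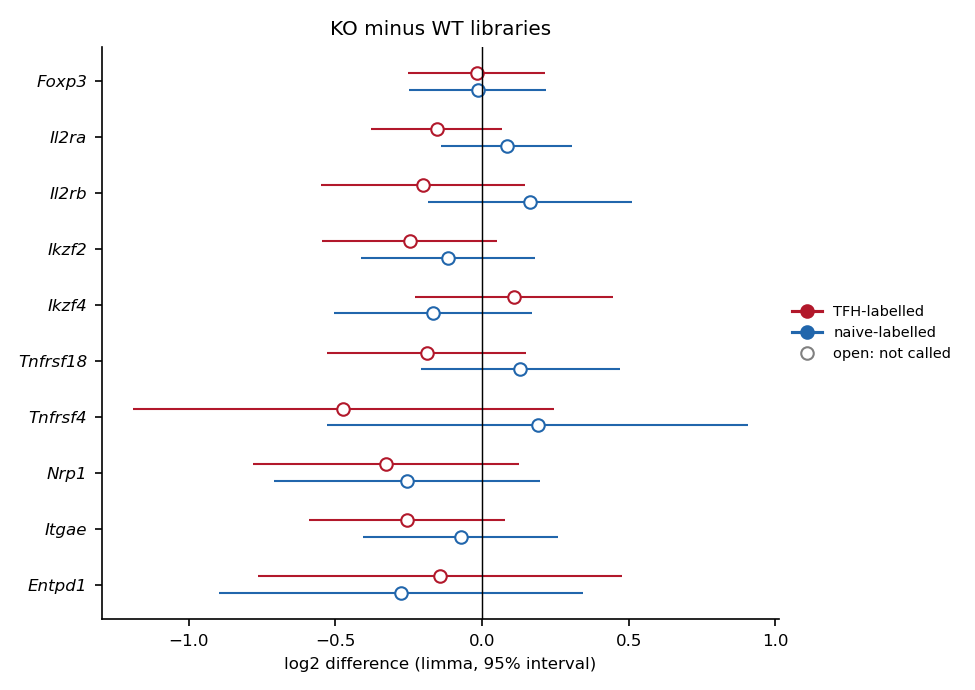
Log2 difference between KO and WT libraries for each marker, among TFH-labelled and among naive-labelled libraries, with 95% intervals from limma. All intervals include 0, and 9 of 10 points among TFH-labelled libraries lie below 0 on the deposited scale; that of Foxp3 was above 0 with either centring (0.08 with deviation and 0.02 with level centring).

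In naive-labelled libraries, KO and WT values overlapped for all 10 members (26.4% of all genes did not overlap), and no member was called (0.0712% of all genes were). The differences ran from -0.28 ± 0.27 for Entpd1 to 0.19 ± 0.29 for Tnfrsf4, with a median of -0.04. None had an unadjusted p below 0.05 (2.53% of all genes). Naive WT replicate 1 was above replicate 2 for 10 of 10 members, beside 42.6% of all genes, by a median of 0.27 and by 0.75 for Entpd1. Naive KO replicate 2 was above replicate 1 for 8 of 10 members, by 0.81 for Tnfrsf4, with Il2ra and Ikzf4 the exceptions. Over all genes, replicate 1 of naive KO was the higher for 50%. The median gap between the libraries of a group was 0.27 for the members in both naive groups, beside 0.16 in naive KO and 0.15 in naive WT over all genes. In the TFH-labelled groups it was 0.17 in KO and 0.12 in WT, beside 0.16 in KO and 0.14 in WT over all genes.

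Transcripts of Pdcd1 and Cxcr5 differed between the same naive libraries. Pdcd1 was 11.97 in naive KO replicate 2 and 11.84 in naive WT replicate 1, against 10.96 in naive KO replicate 1 and 10.80 in naive WT replicate 2. Cxcr5 was 12.30 and 12.45 in the first pair, against 11.86 and 11.56 in the other. The summed level of the 10 members was 15.78 in naive KO replicate 2 and 15.80 in naive WT replicate 1, against 15.55 in naive KO replicate 1 and 15.43 in naive WT replicate 2. The part of other cells in this order was not tested.

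**Figure D4:**
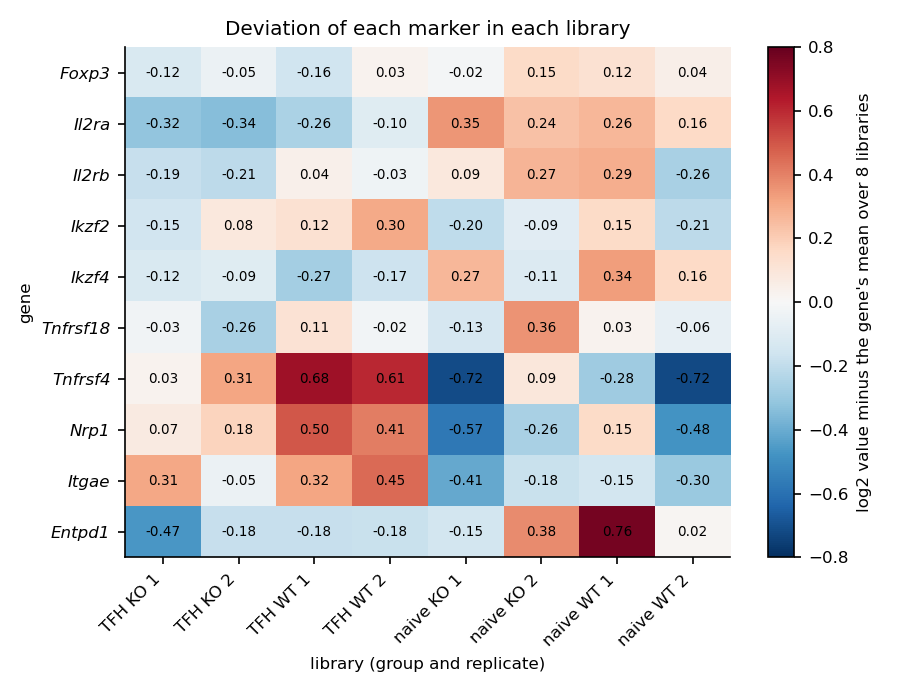
Deviation of each marker from its own mean over the 8 libraries, in log2 units, with libraries in columns. Naive WT replicate 1 lies above naive WT replicate 2 for all 10 genes, and the deviations of Tnfrsf4 are the largest among TFH WT libraries.

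The likeness of 2 genes was measured as the root-mean-square difference of their values, each centred on its own mean over the 8 libraries, among 13151 named genes. The genes closest to Tnfrsf4 were Ybx3 at 0.12, Ptpn13 at 0.13 and Gbp3 at 0.13, and no gene came within 0.1. The genes closest to Foxp3 were Cenpc1, Stxbp5 and Nucb2, at 0.049, 0.049 and 0.050, but 473 genes came within 0.1 of Foxp3, whose own SD over the 8 libraries was 0.11.

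Among 18 other genes associated with regulatory T cells the differences reached 4.92. Of these genes, 4 rose and none fell in TFH KO against naive KO, and 6 rose and 1 fell in TFH WT against naive WT. Over all genes, 9.12% were called higher and 10.4% lower in KO, and 12.6% higher and 13.7% lower in WT. Ctla4, an inhibitory receptor, was 14.10 and 14.34 in TFH KO and 14.53 and 14.49 in TFH WT, against 11.88 and 12.50 in naive KO and 12.24 and 11.80 in naive WT. It rose by 2.03 ± 0.23 in KO (adjusted p = 0.0011) and by 2.50 ± 0.23 in WT (adjusted p = 0.000341). Il10, an anti-inflammatory cytokine that other T cells also make, rose by 3.63 ± 0.72 in KO (adjusted p = 0.0321) and by 4.92 ± 0.72 in WT (adjusted p = 0.0102). The Il10 call ended with the second library of each TFH group left out (adjusted p = 0.264 in KO and 0.108 in WT); in KO it held in 10 of 18 alternatives, being lost also with the compared groups only and without any 1 of the TFH or naive WT libraries. In WT it held in 14 of 18, being lost also without TFH WT replicate 1 or 2 or naive WT replicate 2. Nt5e, which encodes CD73, the enzyme that acts after CD39 to make adenosine, rose by 0.66 ± 0.18 in KO and by 0.83 ± 0.18 in WT, calls that held in 12 of 18 alternatives in KO and 16 in WT. The zinc-finger gene Plagl1 rose by 1.41 ± 0.27 in KO and 2.13 ± 0.27 in WT. In WT, Lrrc32, whose product GARP holds latent TGF-beta on the cell surface, rose by 0.80 ± 0.11, and the chemokine receptor gene Ccr8 by 1.18 ± 0.21. The calls of Ctla4 and Plagl1 in both genotypes and of Lrrc32 and Ccr8 in WT held in all 18 alternatives run. The median of the 18 was 0.29 in KO and 0.39 in WT. Leaving out the second library of each TFH group gave fewer calls in both genotypes, as it did over all genes.

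Of 15 genes of IL-2 signalling, 5 rose and 2 fell in each genotype, with a median of 0.18 in KO and 0.26 in WT. These calls stand beside 19.5% of all genes called in KO and 26.3% in WT. Pim1, a kinase gene induced by STAT5, rose by 2.22 ± 0.12 in KO and by 2.21 ± 0.12 in WT, and the survival gene Bcl2 by 0.96 ± 0.19 in KO and 0.84 ± 0.19 in WT. Il2rg, the gamma chain shared by several cytokine receptors, fell by 0.37 ± 0.09 in KO, where Jak3, the kinase bound to that chain, rose by 0.75 ± 0.18. In WT the kinase gene Jak1 fell by 0.50 ± 0.11, and Il15ra, the alpha chain of the IL-15 receptor, rose by 0.79 ± 0.19. Il2rg was also called lower in WT, and in KO Jak1 was also called lower and Il15ra higher. The Pim1 calls held in all 18 alternatives run in both genotypes, those of Bcl2 in 18 in KO and 16 in WT, Il2rg in KO in 11, Jak3 in KO in 15, and in WT Jak1 in 16 and Il15ra in 15. The Il2rg call in WT held in 12, and in KO those of Jak1 in 8 and Il15ra in 12. Il2 itself differed by -0.72 ± 0.36 in KO and -0.04 ± 0.36 in WT and was not called. With the second library of each TFH group left out, fewer of the 15 genes were called in both genotypes, as were fewer of all genes.

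Of 21 partners and regulators of FOXP3, 6 rose and 3 fell in KO, and 6 rose and 5 fell in WT, with medians of -0.04 in KO and -0.06 in WT. The shares over all genes, 19.5% called in KO and 26.3% in WT, also stand beside the 2 lists that follow. Irf4, a transcription factor gene induced by antigen receptor signals, rose by 1.20 ± 0.18 in KO and by 1.22 ± 0.18 in WT. Gata3, which encodes a factor of type 2 helper T cells, rose by 0.59 ± 0.11 in KO and 0.73 ± 0.11 in WT. In KO the NF-kB subunit gene Rel rose by 1.56 ± 0.29 and the Ikaros family gene Ikzf5 by 0.50 ± 0.12. In WT the histone methyltransferase gene Ezh2 rose by 1.25 ± 0.12, and Runx1, whose product binds FOXP3, fell by 0.53 ± 0.11. Rel was also called higher in WT, and Ezh2 in KO. Of 9 listed ligands, adaptors and signalling genes of the TNF receptor members, 7 were measured. The ligand genes Tnfsf4 and Tnfsf18 were not among the measured genes. Of the 7, 1 rose in each genotype, Birc2 by 0.43 ± 0.10 in KO and Nfkb2 by 0.50 ± 0.16 in WT. Of 10 partners of neuropilin 1, CD103 and CD39, 2 rose in KO, Nt5e and the semaphorin receptor gene Plxnd1 by 0.44 ± 0.13, and 2 rose and 3 fell in WT. Those in WT included Plxnd1 at 0.68 ± 0.13, Sema4a, a semaphorin gene, at -0.56 ± 0.12, and Itgb7, the partner chain of CD103, at -0.37 ± 0.11, the last opposite in sign to Itgae. Of the calls named in these 3 lists, those of Irf4 in both genotypes and of Gata3, Ezh2 and Plxnd1 in WT held in all 18 alternatives run. Others held in 17 (Gata3 in KO), 16 (Rel in both genotypes, Sema4a in WT), 15 (Birc2 in KO, Runx1 in WT) or 13 (Ikzf5 in KO). The remaining calls held in 10 (Plxnd1 in KO, Itgb7 in WT), 9 (Nfkb2 in WT) or 8 (Ezh2 in KO). No gene of these 5 lists was called in TFH KO against TFH WT or in naive KO against naive WT, and the interaction called none either. With single libraries left out, which leaves 1 library in a group, the number of calls varied in all 5 lists in both genotypes. With the second library of each TFH group left out, it was smaller in all 5 lists in both genotypes, as it was over all genes. The falls depend on the scale: with either centring no gene of these lists was called lower in TFH-labelled libraries, while with level centring 12 in KO and 11 in WT of the 18 other regulatory T cell genes, and 11 in KO and 10 in WT of the IL-2 signalling genes, were called higher, beside 51.5% of all genes in KO and 46.4% in WT.

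**Figure D5:**
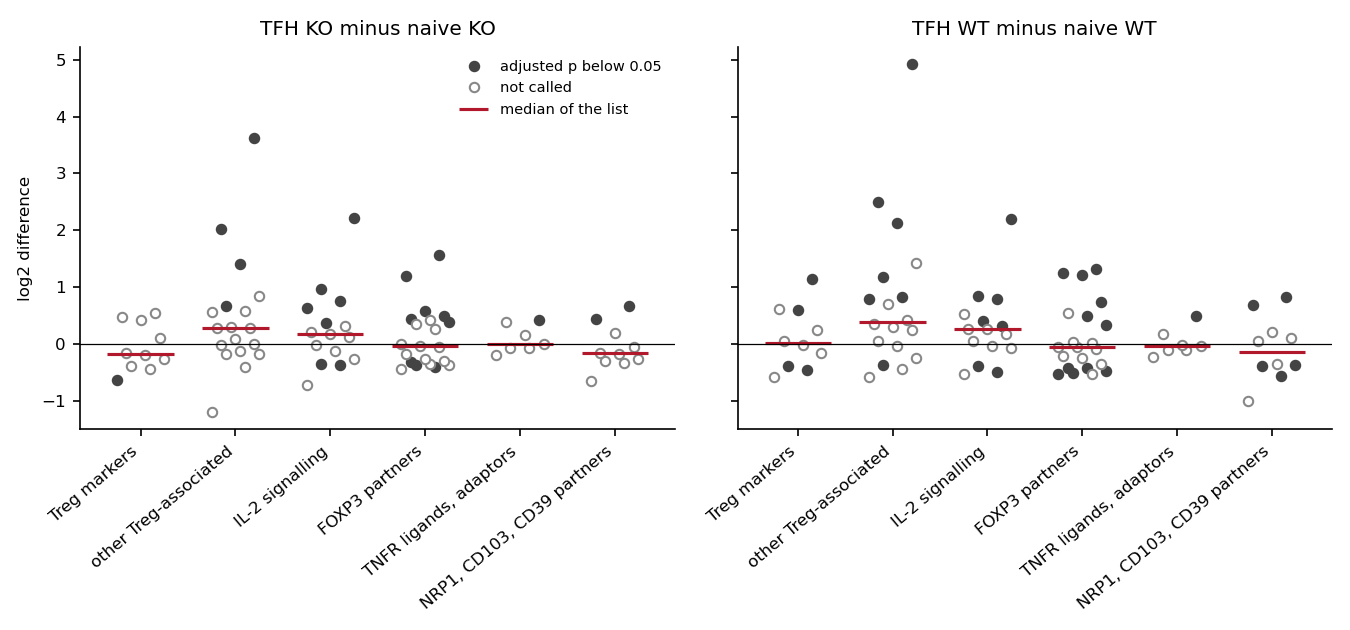
Log2 difference between TFH-labelled and naive-labelled libraries for the genes of 6 lists, KO in the left panel and WT in the right, with filled points called at an adjusted p below 0.05 and a line at each list's median. The highest point in both panels is Il10, and the markers lie on both sides of 0 on this scale.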

How the data were processed

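Total RNA of sorted mouse CD4 cells was sequenced as 51-base single reads, per the labels. The deposited log2 values, 1 table a library, come from reads processed with BWA on mm10, per the submitters' processing notes; versions, the counting method, strand and scaling steps are not stated there. From the values, the libraries share 1 distribution, as after quantile normalization, so depth is unknown and precision rests on 2 libraries a group. limma 3.58.1 in R 4.3.3 fitted 1 mean a group over 8 libraries and 14042 genes, with variance trend and robust moderation, and Benjamini-Hochberg adjustment. The fit was also run on simulated data with independent normal noise. Those data lack the B cell and sex differences between replicates, so that run cannot vouch for the calls here. The labels do not say that replicates are separate animals, so p-values measure only the spread between these samples. Members, lists and the trend setting were chosen with earlier results of these data known. All 10 members are described; of other lists, up to 4 called genes with the smallest p in each comparison are named. Il2, Gsg2, Ccdc22 and Ppp1r3f were chosen after their values were seen. Alternatives were other limma options, a filter, an offset, 2 centrings, a B cell covariate and left-out libraries. C5ar1 is not analysed here.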

Additional observations from a re-analysis of the deposited data

How the results depend on the processing

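No paired analysis was possible because the labels give no replicate numbers. Of the single-member values under the alternatives, 795 kept their direction and side of the threshold, 50 reversed, and 20 gained a call; 26 lost a call, 1 of them among the reversed. The cause was not tested. Members called in TFH KO against naive KO numbered 1 on the deposited scale (19.5% of all genes), 2 with the compared groups only (16%) and 4 with level centring (53.5%). In TFH WT against naive WT they numbered 4 (26.3%), with 2 under deviation centring (18.2%) and 5 under level centring (49.9%). Both counts changed with single libraries left out, and the WT count was also lower without replicate 2 of both TFH groups. The share of all genes called changed under these settings too, and was lower in both genotypes without replicate 2 of both TFH groups. Members that kept 4 TFH-labelled from 4 naive-labelled libraries numbered 3 (38.5% of all genes), with 6 under level centring (65.6%). They numbered 5 without replicate 2 of both TFH groups (50.7%) and 3 to 5 with single libraries left out (40.8% to 44.3%).

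Level centring reversed, in TFH KO against naive KO, Foxp3 (0.35), Il2rb (0.13), Ikzf4 (0.32), Tnfrsf18 (0.25) and Entpd1 (0.065), and in TFH WT against naive WT, Foxp3 (0.30), Il2ra (0.057) and Il2rb (0.43). It also reversed Foxp3 in TFH KO against TFH WT (0.017) and in the interaction (0.059). Deviation centring, added after those values had been seen, reversed Foxp3 (0.043) and Ikzf4 (0.0078) in KO, Il2rb in WT (0.074), Foxp3 in TFH KO against TFH WT (0.075), and Foxp3 (0.10) and Nrp1 (0.036) in the interaction. Leaving out replicate 2 of both TFH groups, which leaves 1 library in each and assumes that it varies like the others, reversed Ikzf2 in KO (-0.0076), Il2rb in WT (0.024), Foxp3 in TFH KO against TFH WT (0.038), and Foxp3 (0.053), Itgae (0.062) and Entpd1 (-0.0080) in the interaction.

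With single libraries left out, the TFH minus naive difference ranged from -0.0076 to 0.23 for Ikzf2 in KO, and in WT from -0.29 to 0.26 for Il2rb and -0.0049 to 0.13 for Tnfrsf18. Foxp3 ranged from -0.11 to 0.073 in TFH KO against TFH WT. In naive KO against naive WT the ranges were -0.099 to 0.069 for Foxp3, -0.11 to 0.44 for Il2rb, -0.30 to 0.066 for Ikzf2, -0.35 to 0.020 for Ikzf4, -0.12 to 0.38 for Tnfrsf18, -0.21 to 0.59 for Tnfrsf4, -0.57 to 0.060 for Nrp1, -0.19 to 0.044 for Itgae and -0.65 to 0.098 for Entpd1. In the interaction they were -0.095 to 0.088 for Foxp3, -0.31 to 0.051 for Ikzf2, -0.39 to 0.24 for Nrp1 and -0.24 to 0.51 for Entpd1. Depth is unknown, and 2 libraries a group limit the precision.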
